A study of Mus musculus with 64 samples.

Results

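The 8 genes described here are the interferon regulatory factors Irf1, Irf2, Irf3, Irf4, Irf5, Irf7, Irf8 and Irf9, chosen by name from the 55487 genes counted in each library. They were followed in bone marrow-derived macrophages (BMMs), cells that grow out of mouse bone marrow in medium rich in macrophage colony-stimulating factor, and mRNA was sequenced in 64 libraries. The cells came from adult C57BL/6JRj wild-type mice (Ahr+/+, labelled WT), which were female, or from adult C57BL/6 mice with a deletion in the gene of the aryl hydrocarbon receptor, AhR (Ahr-/-, labelled KO), that had been backcrossed to the same strain; their sex is not given in the sources used here. For 6 h the cultures received the DMSO vehicle at 0.01%, benzo[a]pyrene (BaP, a combustion product that binds AhR) at 1 µM, or indole-3-carbinol (I3C, a compound of cruciferous plants) at 10 µM. Heat-killed Salmonella enterica serovar Enteritidis (hkSE, 10000000 per ml) were then added as an activating stimulus for 3 h or 20 h. Cultures labelled as without ligand and without activation, which had received vehicle, served as unactivated controls at both times. The 2 genotypes, the 2 times and the 4 treatments (unactivated, and hkSE after DMSO, BaP or I3C) make 16 groups of 4 libraries. By the study's methods the marrow came from 4 mice of each genotype. Libraries of different groups therefore share mice, but whether equal replicate numbers mark the same mouse is not stated. The tests had no term for this sharing. BaP and I3C were not given without hkSE, and all values are mRNA levels.

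Interferon regulatory factors (IRFs) are transcription factors that share a DNA-binding domain which recognises repeats of GAAA, and they carry the response to microbes and to interferons into the nucleus. Irf3 and Irf7 are the factors that sensor kinases phosphorylate to switch on type I interferon genes, and Irf5 acts beside them downstream of the adapter Myd88. Irf9 is the DNA-binding part of a complex with Stat2 that carries interferon signals from the cell surface, Irf1 is an activator that both interferons and NF-kB raise, and Irf2 is known as its antagonist. Irf8 and Irf4 pair with the macrophage factor Spi1 (PU.1), Irf8 in monocytes, macrophages and dendritic cells, and Irf4 in lymphocytes and in alternatively activated macrophages.

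The genes lie on 6 chromosomes of the mm10 build. By the GENCODE M21 annotation Irf1 (ENSMUSG00000018899.16) is at chr11:53770014-53778374 on the plus strand, Irf2 (ENSMUSG00000031627.9) at chr8:46739732-46847458, Irf3 (ENSMUSG00000003184.15) at chr7:44997648-45002848 and Irf4 (ENSMUSG00000021356.10) at chr13:30749226-30766976, all on the plus strand. Irf5 (ENSMUSG00000029771.12) is at chr6:29526625-29541871, Irf8 (ENSMUSG00000041515.10) at chr8:120736358-120756694 and Irf9 (ENSMUSG00000002325.15) at chr14:55603571-55610030, again on the plus strand, and Irf7 (ENSMUSG00000025498.15) is at chr7:141262706-141266481 on the minus strand. All are protein-coding, and counts were taken over exons with regard to strand. The exons of Irf9 share 123 bases, 2.28% of its exon length, with Rnf31 on the same strand, so reads from that stretch cannot be assigned to either gene. Irf5 shares 411 exon bases with Tnpo3, which lies on the opposite strand.

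Promoter sequences are shown for Irf1, Irf2 and Irf8, whose windows hold motifs of factors known to act in bacterial, interferon or AhR signalling, and for Irf7, whose mRNA changed most at 20 h and whose window holds none of them. All are RefSeq windows of GRCm38.p6 from 250 bases before to 50 bases after an annotated start, printed 5′ to 3′ on the gene's strand, with matches in capitals. The letters searched on both strands were GAAA, any 2 bases and GAAA for the core of the interferon-stimulated response element (ISRE), TTCNNNGAA for the gamma-activated site of interferon-responsive promoters (GAS), GCGTG for the AhR response element (AHRE I), and the NF-kB consensus. Of 32851 promoter windows, 3.44% hold the ISRE core, 8.3% the GAS letters, 32.4% GCGTG and 4.51% the NF-kB consensus, so GCGTG in particular is common. The windows are at chr11:53769764-53770063 (plus strand) for Irf1, chr8:46739495-46739794 (plus) for Irf2, chr8:120736108-120736407 (plus) for Irf8 and chr7:141266375-141266674 (minus) for Irf7.
Irf1: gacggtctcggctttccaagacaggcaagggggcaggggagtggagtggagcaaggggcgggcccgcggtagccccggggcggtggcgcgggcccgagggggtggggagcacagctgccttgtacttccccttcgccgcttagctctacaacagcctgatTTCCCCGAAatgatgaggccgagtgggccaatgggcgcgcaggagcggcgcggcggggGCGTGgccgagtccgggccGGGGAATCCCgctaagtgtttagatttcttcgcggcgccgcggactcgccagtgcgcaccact
Irf2: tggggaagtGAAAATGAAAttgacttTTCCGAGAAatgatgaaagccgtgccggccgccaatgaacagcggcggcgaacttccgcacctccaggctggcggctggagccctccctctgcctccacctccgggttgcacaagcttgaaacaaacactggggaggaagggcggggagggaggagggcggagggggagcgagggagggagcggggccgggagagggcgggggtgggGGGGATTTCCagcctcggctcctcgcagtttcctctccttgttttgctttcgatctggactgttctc
Irf8: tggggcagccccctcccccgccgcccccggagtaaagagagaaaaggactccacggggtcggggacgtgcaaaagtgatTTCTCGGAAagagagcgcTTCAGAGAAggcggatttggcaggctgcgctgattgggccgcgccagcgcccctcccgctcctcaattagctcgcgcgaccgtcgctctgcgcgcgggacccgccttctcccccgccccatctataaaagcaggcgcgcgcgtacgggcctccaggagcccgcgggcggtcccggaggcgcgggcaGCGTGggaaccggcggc
Irf7: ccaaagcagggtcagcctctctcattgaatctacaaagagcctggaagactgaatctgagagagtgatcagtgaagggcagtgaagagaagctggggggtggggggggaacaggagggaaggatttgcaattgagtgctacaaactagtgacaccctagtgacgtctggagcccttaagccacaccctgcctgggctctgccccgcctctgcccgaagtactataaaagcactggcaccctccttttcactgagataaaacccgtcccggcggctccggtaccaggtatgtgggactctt
In the Irf1 window the GAS letters stand at -90 to -82, GCGTG at -32 to -28 and the NF-kB letters at -13 to -4 from the start site. The Irf2 window holds the only ISRE core among the 11 windows of these genes, at -241 to -232, a GAS match at -224 to -216 and an NF-kB match at -17 to -8. In the Irf8 window GAS letters occur at -171 to -163 and at -153 to -145, and GCGTG lies past the start, at 33 to 37. A further window of Irf1 holds GCGTG from -46 and from -12, and on the opposite strand the Irf3 window holds it from -150 and from -99 and the Irf4 window from -80. The windows of Irf5, Irf7 and Irf9 and a further window of Irf8 hold none of the 4 motifs. No matches overlapped, and a match says only that these letters are present.

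The libraries held between 12152496 and 233047331 counts on genes, with a median of 24499165. The highest total belonged to unactivated Ahr+/+ replicate 4 at 20 h, and the next highest was 50644601. Of 8 macrophage markers 7 were at 183 CPM or more in every library, with Adgre1 (F4/80) at 819 CPM or more and Csf1r at 1337 CPM or more, while Mertk ranged from 5.23 to 125 CPM, where CPM is the usual scale of a gene's counts relative to library size, here after TMM scaling. Markers of T cells, NK cells and erythroid cells did not pass the filter on low counts, and the highest B cell, mast cell and fibroblast markers were Cd79b (up to 5.96 CPM), Kit (1.34) and Col1a2 (4.28). Of the neutrophil-associated list S100a8, S100a9, Ngp and Camp reached 73.0, 111, 56.4 and 5.29 CPM, with Ly6g, Mpo and Elane at 0.482 CPM or less. Of the conventional dendritic cell list Ccr7 reached 37.8, Zbtb46 1.23 and Flt3 1.2 CPM, with Xcr1, Clec9a and Cd209a at 0.28 CPM or less. Of the plasmacytoid dendritic cell list Cox6a2 reached 23.2 and Ccr9 2.74 CPM, with Siglech at 0.147 CPM or less and Klk1 at 0. The deletion left Ahr reads in Ahr-/- cells (24.8 ± 2.9 CPM against 13 ± 1.3 in Ahr+/+ cells 20 h after hkSE, SD, n = 4), so Ahr itself does not check the labels. Its target Ahrr does: BaP brought it from 0.514 ± 0.11 to 5.37 ± 1.2 CPM in Ahr+/+ cells at 3 h and gave 0.184 ± 0.13 against 0.235 ± 0.084 CPM in Ahr-/- cells.

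In unactivated BMMs Irf5 was the leading member by group mean, and Irf4 was near the floor. Levels of different genes were compared as CPM per kilobase of exon. In Ahr+/+ cells at 3 h these were 84.2 for Irf5, 28.9 for Irf7, 20.7 for Irf8 and 12 for Irf9. Irf2 (9.92), Irf3 (9.82) and Irf1 (9.47) followed and overlapped in their libraries, and Irf4 stood at 0.235. Irf5 made up 48.0% ± 3.2 (SD, n = 4) of the summed level of the 8 genes there, and 44.4% ± 6.9 in Ahr-/- cells at 3 h. In those Ahr-/- cells Irf5 and Irf7 overlapped, with the lowest Irf5 library at 74.4 and the highest Irf7 library at 75.3 CPM per kilobase. At 20 h the shares of Irf5 were 50.9% ± 3.2 and 49.0% ± 2.4. Irf4 was at 0.186 to 1.99 CPM in all 64 libraries, with as few as 4 counts in a library, so its values carry the most counting error of the 8.

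**Figure D1:**
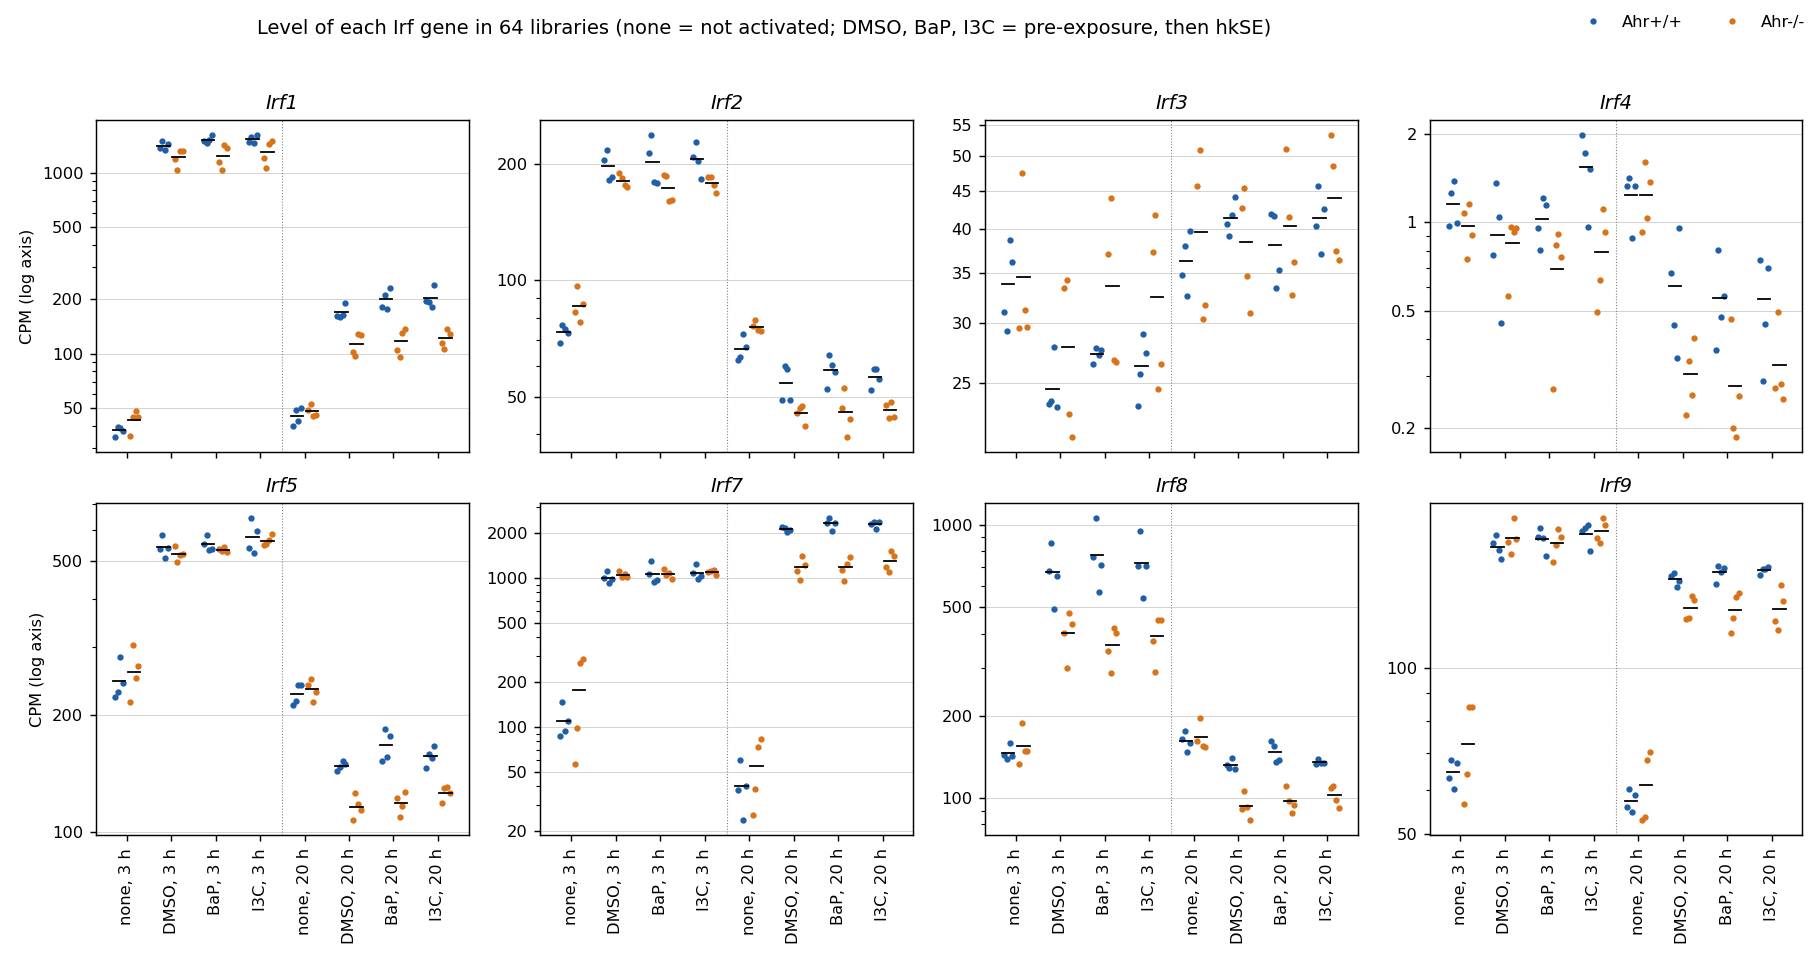
Level of each of the 8 Irf genes in 64 libraries, as CPM on a log axis (range differs by panel), by treatment and time; blue points are Ahr+/+, orange points Ahr-/- libraries, and black lines are means of 4. Irf1 peaks at 3 h (1407 CPM in Ahr+/+ after DMSO and hkSE) and Irf7 at 20 h (2128 CPM), while Irf3 and Irf4 stay within narrow or low ranges.

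At 3 h after hkSE, 6 of the 8 genes were higher in both genotypes, and the largest rise was that of Irf1. A gene was called where the edgeR quasi-likelihood test gave a Benjamini-Hochberg adjusted p below 0.01 over all 14537 genes tested, and by that rule 56.6% of all genes were called in Ahr+/+ cells and 57.3% in Ahr-/- cells, 24.2% and 25.5% as higher. Irf1 went from 34.6, 39.5, 39.0 and 37.5 CPM in the 4 unactivated Ahr+/+ libraries to 1373, 1488, 1329 and 1439 CPM. The groups were far apart, with a log2 fold change of 5.22 (SE 0.14, edgeR adjusted p = 1.8e-37), or 37.3-fold. The Ahr-/- libraries of Irf1 went from 43.2 ± 5.5 to 1213 ± 138 CPM, a log2 fold change of 4.81 (SE 0.13).

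Irf7, the interferon-inducible partner of Irf3, came next. It rose from 86.7, 147, 94.2 and 109 CPM to 996, 1119, 928 and 987 CPM in Ahr+/+ cells, a log2 fold change of 3.20 (SE 0.29, edgeR adjusted p = 9.9e-15), again without overlap. In unactivated Ahr-/- cells its libraries were spread from 56.5 to 285 CPM (56.5, 98.5, 270 and 285), and after hkSE they lay at 1115, 1011, 1060 and 1017 CPM. The log2 fold change was 2.57 (SE 0.28) there, and the activated libraries lay close together where the unactivated ones did not.

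Irf8, which pairs with Spi1, rose from 146 ± 9.0 to 671 ± 151 CPM in Ahr+/+ cells (log2 fold change 2.2, SE 0.16) and from 155 ± 24 to 403 ± 76 CPM in Ahr-/- cells (1.38, SE 0.15). Irf5 rose to 543 ± 30 and 522 ± 21 CPM, with log2 fold changes of 1.15 and 1.01 (SE 0.08 each). The interferon-signal factor Irf9 reached 165 ± 7.1 and 172 ± 11 CPM, with 1.35 (SE 0.09) and 1.24 (SE 0.08). Irf2, the antagonist of Irf1, reached 197 ± 17 and 181 ± 6.7 CPM, with 1.43 and 1.07 (SE 0.09 each). All of these passed the test, with adjusted p between 1.8e-37 and 6.7e-12 over the 12 calls (edgeR). The median log2 fold change of the 8 genes was 1.39 in Ahr+/+ and 1.16 in Ahr-/- cells, beside -0.10 and -0.08 over all genes.

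Irf3, the constitutive factor of the family, did not pass the test, which had no term for the replicate number. Its libraries held 31.0, 29.3, 38.7 and 36.2 CPM before and 23.4, 23.6, 27.9 and 23.2 CPM after hkSE in Ahr+/+ cells, and the groups did not overlap. The log2 fold change was -0.46 (SE 0.18, edgeR adjusted p = 0.019), and in a fit of the compared groups alone it was -0.37 and passed (adjusted p = 0.0046). In Ahr-/- cells it was -0.31 (adjusted p = 0.12), and the groups overlapped. With a term for the replicate number Irf3 passed in Ahr+/+ and Ahr-/- cells (edgeR adjusted p = 7.4e-05 and 0.0033). Irf4 gave -0.34 and -0.19 with overlapping groups.

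**Figure D2:**
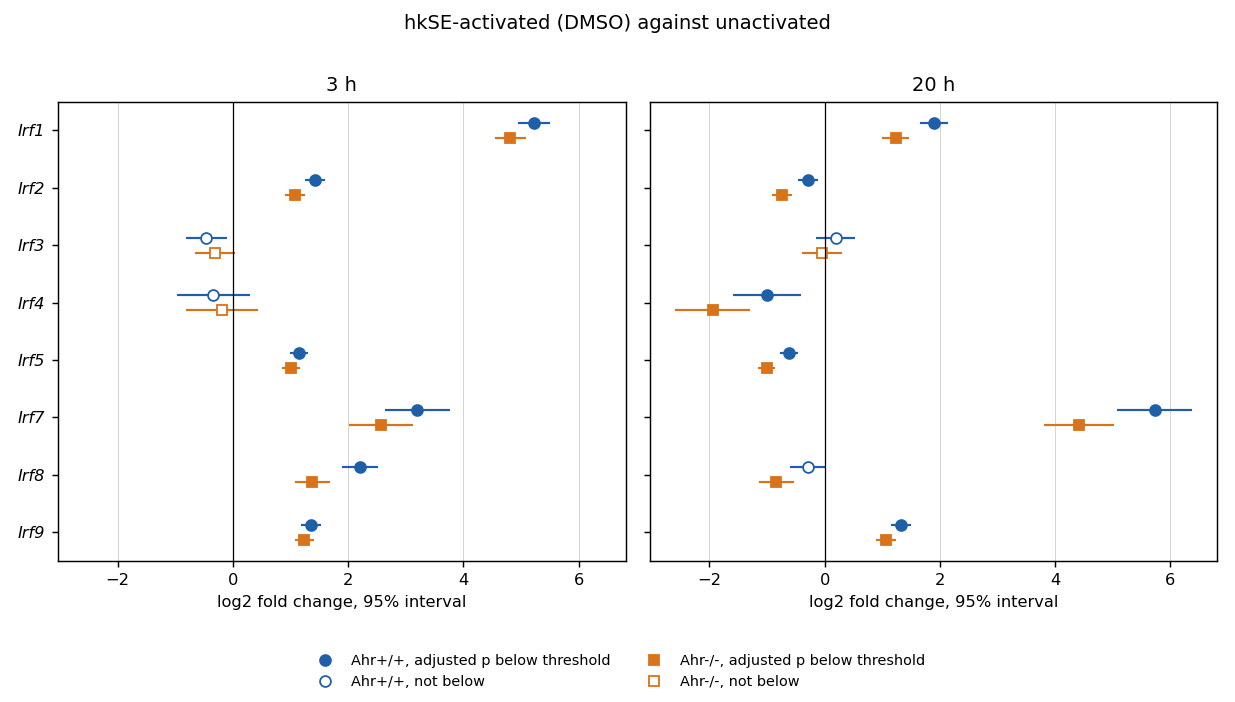
Log2 fold change of each Irf gene after hkSE against unactivated cells at 3 h and 20 h, with 95% intervals from the edgeR fit; circles are Ahr+/+, squares Ahr-/-, and filled symbols have an adjusted p below 0.01. At 3 h 6 genes lie to the right of 0, and at 20 h Irf7 lies farthest right (5.72 and 4.42) while Irf2, Irf4 and Irf5 lie to the left.

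At 20 h the pattern had turned over: Irf7 now led, Irf1 had come most of the way down, and Irf2, Irf4 and Irf5 were below unactivated cells. In Ahr+/+ cells 6 of the 8 genes were called, against 58.6% of all genes, and in Ahr-/- cells 7, against 54.3%. Irf7 stood at 2208, 2153, 2040 and 2112 CPM in the 4 activated Ahr+/+ libraries and at 37.9, 59.6, 23.6 and 39.8 CPM in the unactivated ones. That is a log2 fold change of 5.72 (SE 0.32, edgeR adjusted p = 1.1e-22), or 52.9-fold. Ahr-/- libraries stood at 1117, 977, 1410 and 1225 CPM against 25.8, 38.3, 73.2 and 82.8 CPM, which gives 4.42 (SE 0.30) and 21.4-fold. Every activated library of either genotype was above every unactivated one. The plasmacytoid dendritic cell list (2 of 4 markers tested, Cox6a2 and Ccr9) moved at the same time, from sums of 0.384 to 0.674 CPM to 17.5 to 21.5 CPM in Ahr+/+ and from 0.622 to 0.928 CPM to 13.4 to 19.7 CPM in Ahr-/- cells. Over all libraries Cox6a2 reached 23.2 and Ccr9 2.74 CPM, while Siglech stayed at 0.147 CPM or less and Klk1 at 0. The part of this list in the Irf values was not tested.

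Irf1 was still above unactivated cells at 20 h. It held 161, 160, 164 and 192 CPM against 39.7, 49.0, 42.7 and 50.1 CPM in Ahr+/+ cells (log2 fold change 1.90, SE 0.12) and 102, 97, 128 and 126 CPM against 48.9, 52.7, 45.2 and 46.1 CPM in Ahr-/- cells (1.23, SE 0.12). The groups did not overlap in either genotype. Irf9 was the steadiest of the raised genes, at 144 ± 3.6 and 128 ± 6.4 CPM, with log2 fold changes of 1.33 and 1.06 (SE 0.08 each) that lie near those of 3 h.

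Irf5, the leading gene of unactivated cells, fell to 148 ± 3.8 CPM from 227 ± 14 in Ahr+/+ cells and to 116 ± 8.1 from 233 ± 14 in Ahr-/- cells (log2 fold changes -0.62 and -1.01, SE 0.08 each). Irf2 fell as well, to 54.4 ± 6.1 from 66.3 ± 4.8 CPM (-0.29, edgeR adjusted p = 0.0025) and to 45.3 ± 2.3 from 75.9 ± 2.3 CPM (-0.74). The call for Irf2 in Ahr+/+ cells rests on few libraries, since without activated replicate 1, activated replicate 4 or unactivated replicate 3 it was -0.24 with adjusted p = 0.018. Irf4 fell to 0.607 ± 0.27 from 1.24 ± 0.24 CPM (-1.0, edgeR adjusted p = 0.0024) and to 0.305 ± 0.082 from 1.24 ± 0.31 CPM (-1.94). Without activated Ahr+/+ replicate 3 the first of these was -0.80 (adjusted p = 0.021), without replicate 2 it was -0.89 (adjusted p = 0.013), and with the series of the library identifiers as a covariate -0.91 (adjusted p = 0.014). Irf8 was called in Ahr-/- cells, at 93.2 ± 9.6 against 167 ± 20 CPM (-0.84), while in Ahr+/+ cells it was at 132 ± 5.6 against 162 ± 12 CPM (-0.29, adjusted p = 0.078, and -0.32 with adjusted p = 0.0014 in a fit of the compared groups alone). The difference between these responses of Irf8 was not called (-0.55, adjusted p = 0.10). Irf3 stood at 41.4 ± 2.1 and 38.4 ± 6.8 CPM, with 0.19 and -0.04, neither called.

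**Figure D3:**
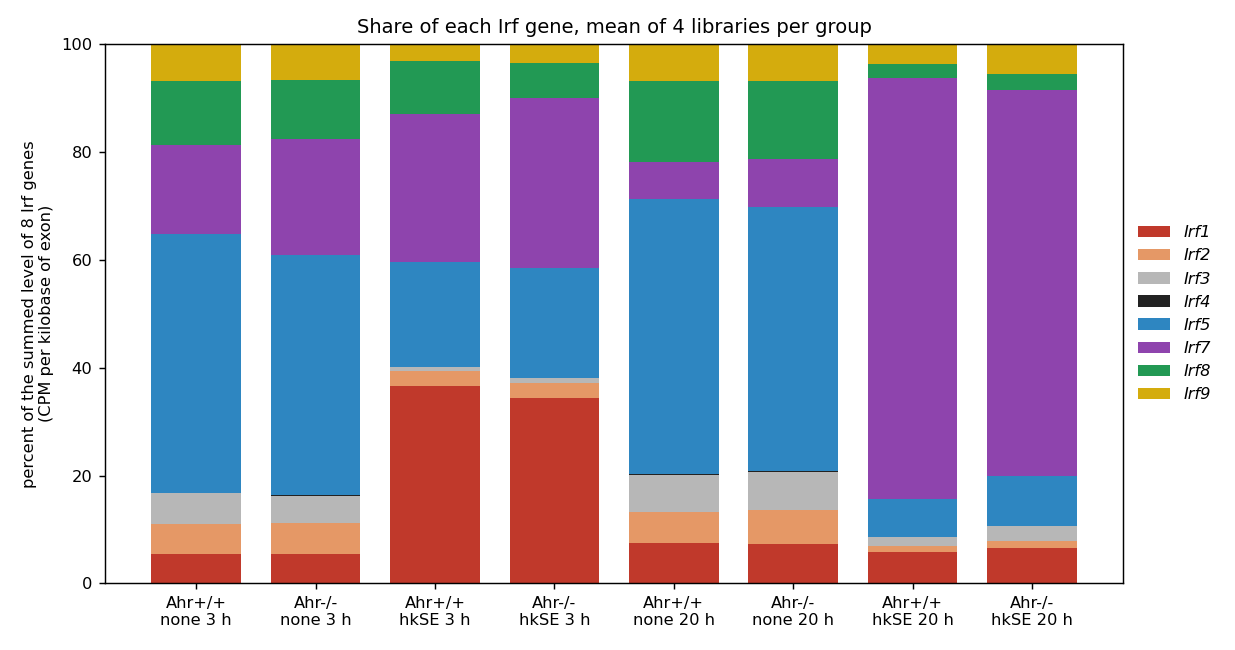
Share of each Irf gene in the summed level of all 8, in percent of CPM per kilobase of exon, as means of 4 libraries in the unactivated and the DMSO plus hkSE groups. Irf5 (blue) leads in unactivated cells, Irf1 (red) at 3 h after hkSE, and Irf7 (purple) holds 78.0% in Ahr+/+ and 71.6% in Ahr-/- cells at 20 h.

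The order of the members by per-length level was not the same in the activated groups. At 3 h after hkSE the per-length level of Irf1 was 354 in Ahr+/+ cells, ahead of Irf7 (267), Irf5 (187) and Irf8 (95.1), with no overlap between any of these neighbours. In Ahr-/- cells Irf1 (305) and Irf7 (278) overlapped. At 20 h Irf7 alone was at 564 in Ahr+/+ cells, and the next were Irf5 (50.9) and Irf1 (42.5), which did not overlap. The Ahr-/- values put Irf7 at 313, Irf5 at 40.0 and Irf1 at 28.5. The summed level of the 8 genes went from 175 ± 12 CPM per kilobase in unactivated Ahr+/+ cells to 967 ± 71 at 3 h, and was 722 ± 16 at 20 h. In Ahr-/- cells these sums were 204 ± 40, 885 ± 54 and 436 ± 50.

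Between 3 h and 20 h after hkSE Irf1, Irf2, Irf5 and Irf8 fell in both genotypes, while Irf3 and Irf7 were called higher in Ahr+/+ cells in the main fit. At these times 59.5% of all genes were called in Ahr+/+ cells, 26.4% as lower and 33% as higher, beside 4 lower and 2 higher of the 8 Irf genes. In Ahr-/- cells 56% were called, 24.3% as lower, beside 6 of the 8 Irf genes, all lower. In Ahr+/+ and Ahr-/- cells in turn, the log2 fold change was -3.06 and -3.42 for Irf1 (8.32-fold and 10.7-fold lower), -2.34 and -2.11 for Irf8, -1.88 and -2.17 for Irf5, and -1.86 and -2.0 for Irf2. Irf7 rose by 1.08 (SE 0.26, edgeR adjusted p = 0.00032) in Ahr+/+ cells, while in Ahr-/- cells the difference was 0.17 (SE 0.26, adjusted p = 0.58) and the libraries overlapped. Irf3 was higher at 20 h in Ahr+/+ cells (0.76, edgeR adjusted p = 0.00016). In Ahr-/- cells it gave 0.46 (adjusted p = 0.018), and without activated Ahr-/- replicate 4 of 20 h 0.55 (adjusted p = 0.0077). With a term for the replicate number Irf3 passed in Ahr-/- cells as well (0.48, edgeR adjusted p = 2.7e-05, and 0.47, limma-voom adjusted p = 0.00041). Irf9 fell by 0.42 in Ahr-/- cells (edgeR adjusted p = 1.5e-05). All activated Ahr-/- libraries of 3 h after DMSO carry library identifiers of 1 numbered series and all those of 20 h identifiers of another, so time and series cannot be told apart there, and with the series as a covariate Irf9 was at -0.33 (adjusted p = 0.012). In Ahr+/+ cells its value was -0.20 (adjusted p = 0.034) by edgeR and -0.27 (adjusted p = 0.0025) by DESeq2, and by edgeR -0.28 and -0.30 (adjusted p = 0.0071 and 0.0043) without replicate 3 or 4 of 3 h. Irf4 fell in Ahr-/- cells (-1.44, edgeR adjusted p = 0.00025).

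Among unactivated cells 1 member differed between the times. In unactivated cells Irf7 was lower at 20 h than at 3 h in both genotypes, by 1.44 on the log2 scale in Ahr+/+ (edgeR adjusted p = 0.00012) and by 1.68 in Ahr-/- cells (edgeR adjusted p = 7.8e-06), where 6.07% and 6.98% of all genes were called, 2.77% and 3.46% as lower. The Ahr-/- libraries of the times overlapped, and in a fit of those groups alone the value was -1.69 with adjusted p = 0.12. All unactivated Ahr-/- libraries of 20 h (25.8 to 82.8 CPM) carry identifiers of 1 series. Of those of 3 h only replicate 1, which had the lowest Irf7 (56.5 CPM), carries that series. Irf9 gave -0.24 in unactivated Ahr-/- cells (edgeR adjusted p = 0.045) and -0.35 (adjusted p = 0.0018) without replicate 1 of 3 h. None of the 7 genes other than Irf7 was called in either genotype. The change of the activation response between the times was tested as well, where 47.8% (Ahr+/+) and 44.7% (Ahr-/-) of all genes were called. It was negative for Irf1 (-3.33 and -3.58), Irf8 (-2.49 and -2.22), Irf5 (-1.77 and -2.02) and Irf2 (-1.71 and -1.82), positive for Irf7 (2.52 and 1.85), and negative for Irf4 in Ahr-/- cells (-1.76), and these 11 differences passed the test, although that of Irf7 in Ahr-/- cells did not in a fit of the compared groups alone (1.79, adjusted p = 0.021). For Irf3 in Ahr+/+ cells it was 0.65 (edgeR adjusted p = 0.020). With a term for the replicate number it was 0.65 and passed (edgeR adjusted p = 5.8e-05).

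Whether the level of these genes depends on the receptor was asked by comparing genotypes at rest and after hkSE. In unactivated cells 0 of the 8 genes differed between Ahr-/- and Ahr+/+ cells at either time by edgeR at an adjusted p below 0.01, where 1.21% (3 h) and 0.702% (20 h) of all genes were called. At an unadjusted edgeR p below 0.05 there were 2 at 3 h (Irf2 at 0.23, Irf7 at 0.70) and 1 at 20 h (Irf2 at 0.19). Of the 14537 genes tested 1452 were below it at 3 h and 1814 at 20 h. DESeq2 also called 0 of the 8 genes. The Irf2 libraries did not overlap at either time (5.94% and 8.28% of all genes), with 68.9, 76.8, 74.7 and 73.1 CPM in Ahr+/+ and 82.7, 96.4, 78.1 and 86.8 CPM in Ahr-/- cells at 3 h. The edgeR adjusted p for Irf2 was 0.21 at 3 h and 0.30 at 20 h.

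After hkSE, Irf8 was lower in Ahr-/- cells at 3 h and was the 1 member called, against 2.83% of all genes called and 1.61% called lower. Its libraries held 679, 861, 493 and 650 CPM in Ahr+/+ and 404, 299, 478 and 433 CPM in Ahr-/- cells. The lowest Ahr+/+ library (493 CPM) lay just above the highest Ahr-/- library (478 CPM), and the log2 fold change was -0.73 (SE 0.15, edgeR adjusted p = 0.0012). Leaving out replicate 2 of either genotype gave -0.58 (Ahr+/+, adjusted p = 0.027) and -0.60 (Ahr-/-, adjusted p = 0.023), and a fit of the compared groups alone gave -0.73 (adjusted p = 0.039). The neutrophil-associated list (4 of 7 markers tested) summed to 104 to 238 CPM in these Ahr+/+ libraries and to 105 to 109 CPM in the Ahr-/- libraries, and the conventional dendritic cell list (3 of 6 tested) to 1.75 to 4.15 CPM and to 1.65 CPM or less. The part of either in the Irf8 difference was not tested, and in bulk RNA fewer cells of a type and less RNA per cell cannot be told apart. Irf8 was at 777 ± 208 against 363 ± 59 CPM after BaP and at 726 ± 168 against 391 ± 76 CPM after I3C, not tested between genotypes, and in all of these Ahr+/+ groups replicate 2 was the highest and replicate 3 the lowest.

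At 20 h after hkSE, Irf1 and Irf5 were lower in Ahr-/- cells in the fit of all 64 libraries, and all 8 genes had a negative log2 fold change. The 2 calls stand beside 12.5% of all genes called, 7.39% as lower. Irf1 was at 161, 160, 164 and 192 CPM in Ahr+/+ and at 102, 97, 128 and 126 CPM in Ahr-/- libraries, with no overlap and a log2 fold change of -0.58 (SE 0.12, edgeR adjusted p = 0.00016). Irf5 was at 143, 147, 152 and 149 CPM in Ahr+/+ and at 107, 126, 118 and 114 CPM in Ahr-/- libraries, also apart, with -0.35 (SE 0.08, edgeR adjusted p = 0.00048). Irf7 had the larger fold, 2128 ± 71 against 1182 ± 183 CPM, and its libraries did not overlap, but the test gave -0.85 (SE 0.26, edgeR adjusted p = 0.015) and DESeq2 gave -0.87 (adjusted p = 0.0078). Irf8 was at 132 ± 5.6 against 93.2 ± 9.6 CPM (-0.50, edgeR adjusted p = 0.012, and -0.52 with adjusted p = 0.0059 by DESeq2), and Irf2 at 54.4 ± 6.1 against 45.3 ± 2.3 CPM (-0.26, edgeR adjusted p = 0.021, and -0.28 with adjusted p = 0.0096 by DESeq2). In a fit of the compared groups alone Irf1 (-0.55, adjusted p = 0.014) and Irf5 (-0.32, adjusted p = 0.024) missed the threshold, while Irf7 (-0.82, adjusted p = 0.0034) and Irf8 (-0.48, adjusted p = 0.0093) passed it. Irf4 (-0.98), Irf9 (-0.17) and Irf3 (-0.11) were not called. The libraries of 6 members did not overlap between the genotypes, against 20.4% of all genes. The median log2 fold change of the 8 was -0.43, beside 0.01 over all genes.

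The genotype difference at 20 h coincides with a difference in library identifiers. All activated Ahr+/+ libraries of 20 h carry identifiers of 1 numbered series and all Ahr-/- libraries of 20 h those of another, and what a series stands for is not given in the sources used here. With the series as a covariate, which is then estimated from other groups, Irf1 was at -0.43 (edgeR adjusted p = 0.082), Irf5 at -0.16 (adjusted p = 0.35) and, at 3 h, Irf8 at -0.65 (adjusted p = 0.013). Within a series the comparison at 20 h has no samples, so genotype and series cannot be told apart in it. The series were also uneven at 3 h after DMSO and hkSE. There Ahr+/+ replicates 1 and 2 (Irf8 at 679 and 861 CPM) carry identifiers of another series than the other libraries. Those are Ahr+/+ replicates 3 and 4 (493 and 650 CPM) and all Ahr-/- libraries. Macrophage markers summed to 18829 to 22840 CPM in the Ahr+/+ and to 20145 to 32147 CPM in the Ahr-/- libraries, and the conventional dendritic cell list to 20.4 to 39.6 and 3.82 to 8.54 CPM. The 3 tested markers of that list were all lower in Ahr-/- cells (Flt3 -2.92, Zbtb46 -2.56 and Ccr7 -1.99 on the log2 scale), and Xcr1, Clec9a and Cd209a were at 0.28 CPM or less in all 64 libraries. The plasmacytoid list summed to 17.5 to 21.5 and 13.4 to 19.7 CPM, with 0 of its 2 tested markers called. The part of these cells in the Irf differences was not tested.

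**Figure D4:**
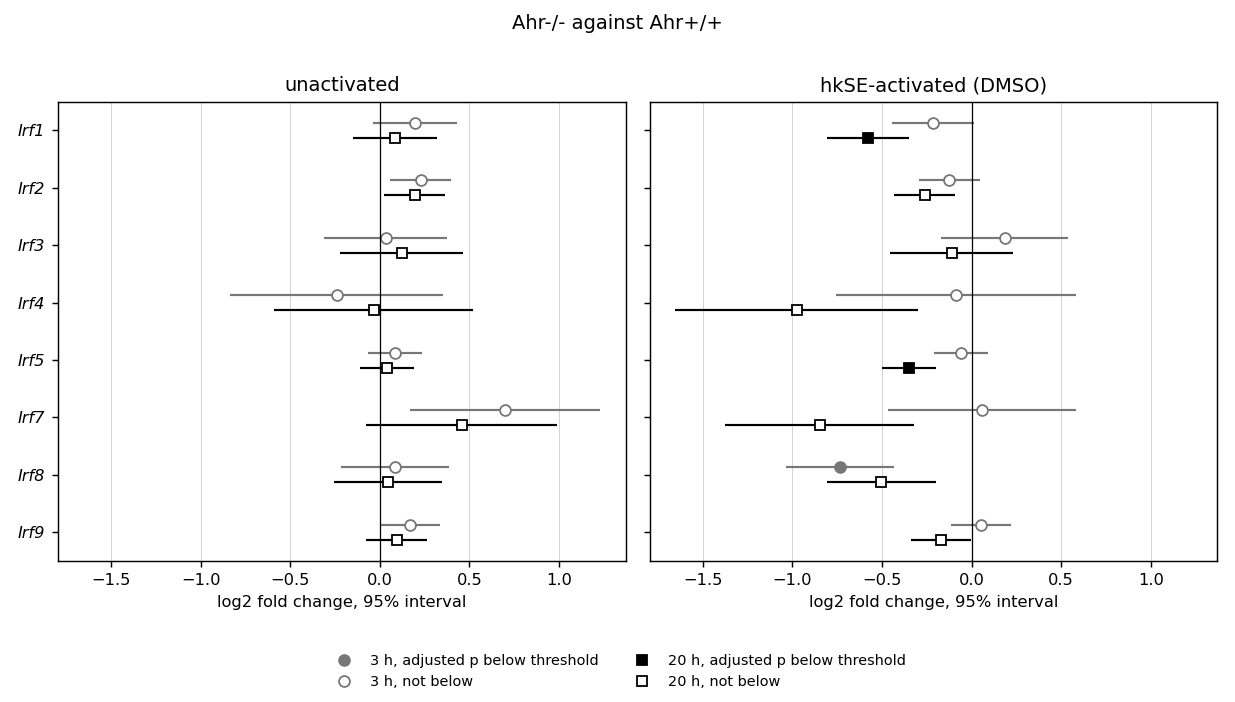
Log2 fold change of each Irf gene in Ahr-/- against Ahr+/+ cells, with 95% intervals from the edgeR fit, unactivated (left) and after DMSO plus hkSE (right); grey circles are 3 h, black squares 20 h, and filled symbols have an adjusted p below 0.01. The filled symbols are Irf8 at 3 h (-0.73) and Irf1 and Irf5 at 20 h (-0.58 and -0.35).

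The activation response itself was compared between the genotypes. At 3 h 0 members were called by edgeR, where 0.0138% of all genes were called. Irf8 (-0.82), Irf2 (-0.35) and Irf1 (-0.41) had an unadjusted edgeR p below 0.05, as had 867 of the 14537 genes tested. DESeq2 called 0 members. At 20 h, where 4.41% of all genes were called, the response was smaller in Ahr-/- cells for Irf1 (-0.66, SE 0.16, edgeR adjusted p = 0.0049), and Irf2 fell further in them (-0.46, SE 0.12, edgeR adjusted p = 0.0091). Both calls are near the threshold. With the series of the library identifiers as a covariate neither passed (Irf1 -0.65, edgeR adjusted p = 0.012, and Irf2 -0.42, adjusted p = 0.024). For Irf1, 6 of 16 single libraries left out (unactivated Ahr+/+ replicates 1 and 3, activated Ahr+/+ replicate 4, activated Ahr-/- replicates 1 and 2, unactivated Ahr-/- replicate 2) gave -0.60 to -0.64 with adjusted p of 0.013 to 0.021. For Irf2, 12 of 16 gave -0.40 to -0.47 with adjusted p of 0.012 to 0.032, and the 4 that kept the call were unactivated Ahr+/+ replicate 3, activated Ahr+/+ replicates 1 and 4 and activated Ahr-/- replicate 3. Irf7 (-1.30, adjusted p = 0.018) and Irf5 (-0.39, adjusted p = 0.013) missed the threshold in edgeR. They passed it without unactivated Ahr+/+ replicate 2 or Ahr-/- replicate 1 for Irf7 (-1.55, adjusted p = 0.0052, and -1.54, adjusted p = 0.0029), and without activated Ahr-/- replicate 2 or unactivated Ahr-/- replicate 3 for Irf5 (-0.43, adjusted p = 0.0097, and -0.42, adjusted p = 0.0088).

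BaP and I3C were compared with DMSO in activated cells to ask whether ligands of AhR change these genes. None of the 8 genes was called by edgeR for either ligand, in either genotype, at either time, and none was called by DESeq2, limma-voom or the other fits. Few genes were called at all: for BaP 0.0482% at 3 h and 0.234% at 20 h in Ahr+/+, and 0.0275% and 0.0138% in Ahr-/- cells, and for I3C 0.131%, 0.509%, 0.0206% and 0.206% in the same order. The highest values in Ahr+/+ cells at 20 h were those of Irf1. It was at 182, 210, 176 and 230 CPM after BaP and at 194, 193, 180 and 240 CPM after I3C, beside 161, 160, 164 and 192 CPM after DMSO. The means were higher with either ligand and the groups overlapped. With each ligand all 4 libraries were above the DMSO library of the same number, which is not known to mark the same mouse. The log2 fold changes were 0.24 (95% interval 0.01 to 0.47, edgeR adjusted p = 0.46) for BaP and 0.26 (0.03 to 0.49, adjusted p = 0.70) for I3C, with unadjusted p of 0.044 and 0.030. The study lists 0.24 and 0.26 for Irf1 in these comparisons too, and marks both as significant at its threshold. It also reports many more genes for BaP at 20 h than were called here. The reason for this difference was not tested. In Ahr-/- cells Irf1 was at 113 ± 16 after DMSO, 117 ± 19 after BaP and 121 ± 14 CPM after I3C, with 0.04 (-0.19 to 0.27) and 0.10 (-0.13 to 0.33). The difference of the BaP effect between the genotypes was 0.19 (-0.13 to 0.52), and that of the I3C effect 0.16 (-0.17 to 0.48), neither called.

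**Figure D5:**
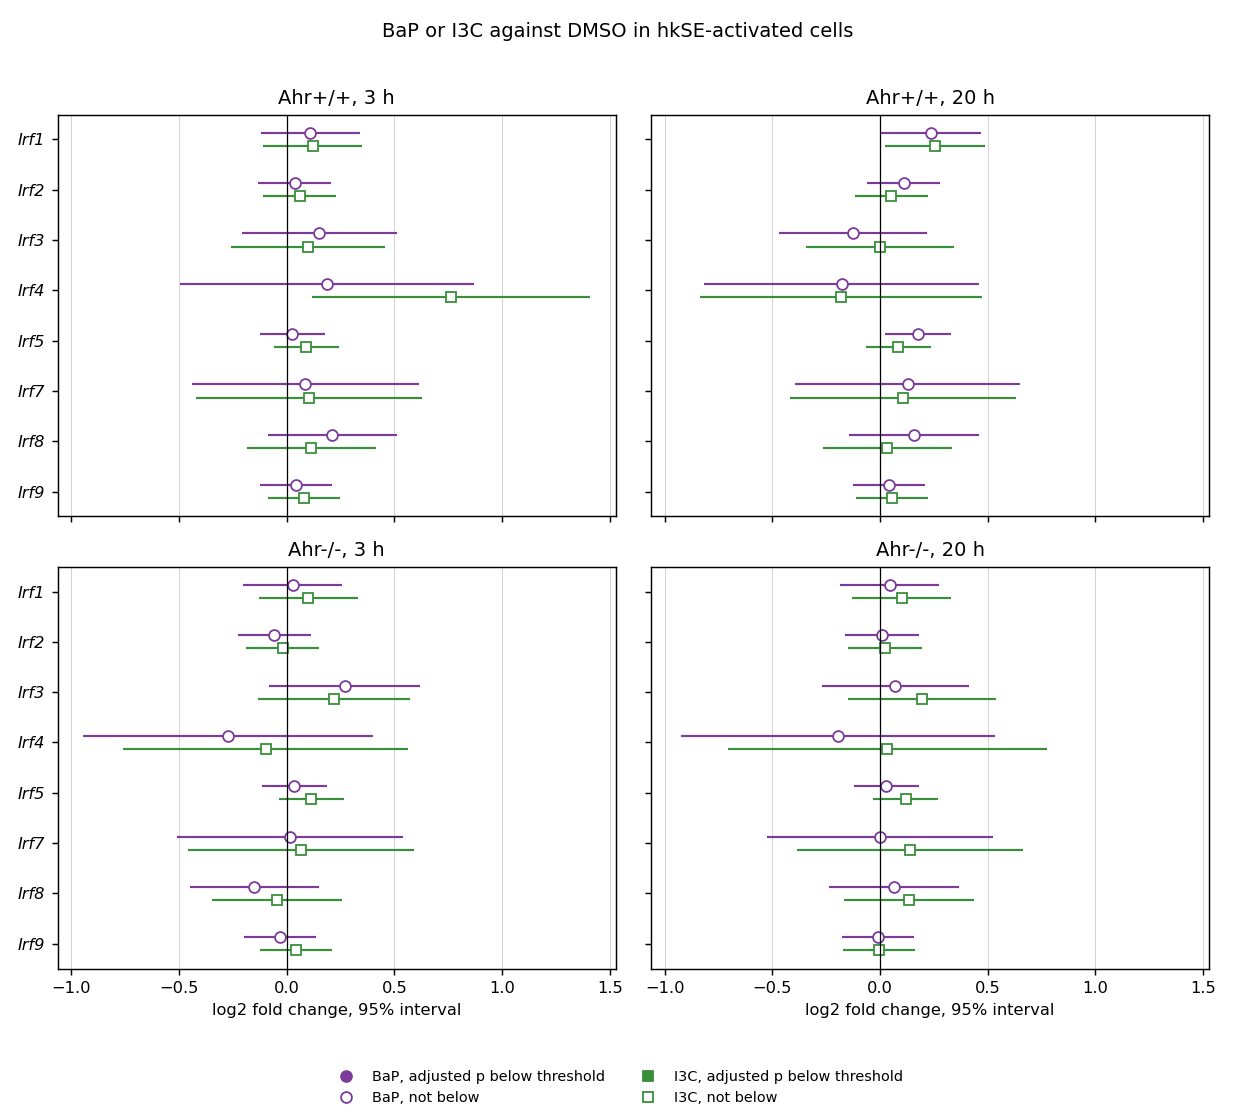
Log2 fold change of each Irf gene after BaP (purple circles, 1 µM) or I3C (green squares, 10 µM) against DMSO in hkSE-activated cells, with 95% intervals from the edgeR fit, by genotype and time; open symbols have an adjusted p of 0.01 or more, and all are open. The Ahr+/+ values of Irf1 at 20 h are 0.24 and 0.26, and the intervals of Irf4 and Irf7 are the widest.

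Irf5 in Ahr+/+ cells at 20 h was at 148 ± 3.8 after DMSO, 167 ± 16 after BaP and 157 ± 8.6 CPM after I3C, with 0.18 (0.02 to 0.33, edgeR adjusted p = 0.37) and 0.08 (-0.07 to 0.24). Irf7 was at 2128 ± 71, 2325 ± 190 and 2294 ± 115 CPM in these groups, with 0.13 (-0.40 to 0.65) and 0.11 (-0.42 to 0.63). For Irf2, Irf5 and Irf9 the intervals of all ligand effects lay between -0.23 and 0.33 on the log2 scale. Irf4 in Ahr+/+ cells at 3 h gave the largest ligand value of any member, with 0.773, 1.36, 1.04 and 0.453 CPM after DMSO and 1.99, 1.72, 0.963 and 1.52 CPM after I3C. These libraries overlapped (0.76, 0.12 to 1.41, edgeR adjusted p = 0.76). The doses of the ligands differed, so BaP was not set against I3C beyond giving both: of the 8 genes 0 were called between them at 3 h or 20 h, where 0.11% and 0.282% of all genes were.

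In the lists of genes around the family, the targets moved with activation, and 12 of 22 differed by genotype at 20 h. Of these 22 interferon-stimulated genes, all were higher than in unactivated cells at 3 h in both genotypes and at 20 h in Ahr+/+ cells, and 21 at 20 h in Ahr-/- cells. Over all genes 24.2% and 25.5% were higher at 3 h, and 29.9% and 28.3% at 20 h, in Ahr+/+ and Ahr-/- cells. The median log2 fold change of this list at 3 h was 7.30 (Ahr+/+) and 6.84 (Ahr-/-), and at 20 h it was 5.51 and 3.79 respectively. At 20 h after hkSE these 12 were lower in Ahr-/- than in Ahr+/+ cells and 0 were higher, beside 7.39% of all genes lower, with a median of -1.05, led by the antiviral GTPase Mx1 (-2.15). The medians over all genes in these comparisons lay between -0.10 and 0.02. Genotype and the series of the library identifiers cannot be told apart at 20 h for these genes either. Alternative fits were looked up for the 8 Irf genes only. Stat2, the partner of Irf9, was at 564 ± 27.5 CPM in activated Ahr+/+ and 318 ± 72.3 CPM in activated Ahr-/- cells at 20 h (SD, n = 4), a log2 difference of -0.83 (edgeR adjusted p = 3.72e-05). Of 18 sensors and kinases upstream of the family 4 were lower, led by Tlr9 (-1.49), and of 7 feedback inhibitors 0 were called between the genotypes. Among these inhibitors Socs1, which restrains JAK kinases, was at 22.7 ± 1.9 CPM in Ahr+/+ and 33.7 ± 12 CPM in Ahr-/- cells (0.57, edgeR adjusted p = 0.066), and Usp18, which restrains the type I interferon receptor, at 311 ± 16 and 222 ± 54 CPM (-0.49, edgeR adjusted p = 0.12). Among 8 DNA-binding partners and co-repressors 4 were higher and 3 lower at 3 h of activation in each genotype, where 32.3% and 31.8% of all genes were lower, and Batf2 was the 1 that was lower in Ahr-/- cells at 20 h (-0.75, edgeR adjusted p = 0.00099). Spi1, the partner of Irf8 and Irf4, was at 353 ± 11 and 279 ± 28 CPM there (-0.34, edgeR adjusted p = 0.095).

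Ifnb1, the interferon that Irf3 and Irf7 switch on, was at 13.2 to 22.3 CPM in Ahr+/+ and 3.80 to 17.6 CPM in Ahr-/- cells at 3 h, which overlapped. At 20 h, where genotype and identifier series cannot be told apart, it was at 0.494 to 1.48 and 0.0950 to 0.368 CPM (-2.51, edgeR adjusted p = 0.0013). Of the receptor chains of type I interferon, Ifnar1 was at 272 ± 12 and 270 ± 14 CPM there and was not called, and Ifnar2 was at 252 ± 12 and 222 ± 8.2 CPM, without overlap, and was not called either (-0.18, edgeR adjusted p = 0.054). Ifna4 and Ifng were too low to test. With either ligand 0 genes of these lists were called in Ahr+/+ cells at either time by edgeR.

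Some members kept in step across the 16 groups. Over group means of log2 CPM, Pearson's r was 0.99 between Irf2 and Irf5, 0.97 between Irf2 and Irf8 and 0.92 between Irf7 and Irf9, while Irf3 ran against Irf2 (-0.91), Irf5 (-0.89) and Irf8 (-0.92), all over n = 16 groups that share genotype, time and activation. The gene most like each member by the same measure, the first of 3 looked up, was Trim26 for Irf1 (0.998), Otud1 for Irf2 (0.997), Ring1 for Irf3 (0.982), Ctsl for Irf4 (0.963), Cds1 for Irf5 (0.996), Mfsd7a for Irf7 (0.994), Nsmaf for Irf8 (0.989) and Ifi35 for Irf9 (0.996). Over the 12 activated groups alone the 3 most like genes were others for all 8 members.

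For some members the Ahr-/- replicates differed among themselves in a repeated way that was seen in the values and then counted. Replicates 3 and 4 were both above replicates 1 and 2 in all 8 Ahr-/- groups for Irf9, in 7 for Irf1 (with 1 reversed) and in 5 for Irf7. The reverse held in 7 of 8 for Irf3 and in 5 for Irf2. Irf8 had 3 groups each way, Irf5 had 1 each way, and Irf4 had 1 above and 0 below. This split was not counted over all genes, so it is not known to be particular to these members. The spread of unactivated Irf7 noted above has this order, with 56.5 and 98.5 CPM in replicates 1 and 2 and 270 and 285 CPM in replicates 3 and 4 at 3 h, and 25.8 and 38.3 against 73.2 and 82.8 CPM at 20 h. Whether a number marks 1 mouse in all 8 groups is not stated in the sources used here. With 4 mice of each genotype these groups share mice, so they are not independent of each other in this respect.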

How the data were processed

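RNA was sequenced in 64 libraries made with a TruSeq stranded mRNA kit. The authors deposited raw counts per gene and library. Per the labels, reads were converted with bcl2fastq 2.19.0.316, aligned to mm10 with HISAT2 2.1.0 and counted with HTSeq 0.9.1, by strand and within exons according to the study's methods. The authors also deposited variance-stabilised log2 values, used here for an alternative fit only. Summary entries that name no gene were left out of library sizes, and 74.9% to 80.8% of all entries were on genes. The counts of 55487 genes were filtered with filterByExpr at a minimum count of 10, which left 14537, scaled by TMM and fitted with 16 group means in edgeR 4.0.16 (R 4.3.3), with limma 3.58.1 and DESeq2 1.42.0 as alternatives. The quasi-likelihood test with Benjamini-Hochberg adjustment over all genes and a threshold of 0.01 gave the calls, and the scripts were tested on simulated data. The study's methods name DESeq2 at the same threshold. CPM per kilobase used the union of annotated exons.

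The 8 members, the pathway lists and the marker lists were chosen with earlier results of these data known. All 8 members are named. Of the pathway lists, a gene could be named where it was the called gene with the largest change of its list in a comparison, and the genes named in any case were Stat2, Ifnb1, Ifnar1, Ifnar2, Spi1, Batf2, Socs1 and Usp18, and Ahr and Ahrr checked the labels. A further gene named by this rule, and the counts of its list, are not reported here. Replicate numbers come from the labels, and the study's methods name 4 mice of each genotype as the source of the marrow. Depth ranged from 12152496 to 233047331 counts, and Irf4 had as few as 4 counts in a library. Alternatives changed the scaling, filter, tool, threshold, samples in the fit, the replicate block and a covariate for the library identifier series, and left out each library in turn.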

Additional observations from a re-analysis of the deposited data

Results flagged for a closer look

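In 6 of 128 sets of 4 libraries (8 genes in 16 groups) 1 library stood far from the others, and chance gives about 5% of such sets. Irf1 was at 192 CPM in replicate 4 of Ahr+/+ cells at 20 h after DMSO and hkSE, where the others were at 160 to 164. Irf3 was at 47.6 CPM in replicate 2 of unactivated Ahr-/- cells at 3 h (others 29.5 to 31.3) and at 27.9 CPM in replicate 3 of Ahr+/+ cells at 3 h after DMSO and hkSE (others 23.2 to 23.6). Irf4 was at 0.561 CPM in replicate 1 of Ahr-/- cells at 3 h after DMSO and hkSE (others 0.926 to 0.961), at 0.496 CPM in replicate 2 of Ahr-/- cells at 20 h after I3C and hkSE (others 0.251 to 0.282), and at 0.887 CPM in replicate 3 of unactivated Ahr+/+ cells at 20 h (others 1.33 to 1.41).

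The response to hkSE differed between the genotypes at 20 h for Irf1 (-0.66 on the log2 scale, Ahr-/- minus Ahr+/+) and Irf2 (-0.46). It differed between 20 h and 3 h in Ahr+/+ cells for Irf1 (-3.33), Irf2 (-1.71), Irf5 (-1.77), Irf7 (2.52) and Irf8 (-2.49), and in Ahr-/- cells for Irf1 (-3.58), Irf2 (-1.82), Irf4 (-1.76), Irf5 (-2.02), Irf7 (1.85) and Irf8 (-2.22). These 13 differences passed the interaction test in the main edgeR fit. Those between the genotypes did not pass with the series covariate (adjusted p = 0.012 for Irf1 and 0.024 for Irf2). In an edgeR fit of the compared groups alone they did not pass either (adjusted p = 0.017 and 0.028).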

How the results depend on the processing

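No result for a member changed direction past the threshold under the alternatives run. Of the 240 results for single members, DESeq2 left 234 on the same side of the threshold and the fit with a series covariate 233. The number of members lower in Ahr-/- cells at 3 h after hkSE (1) became 0 with the series covariate and 0 in a fit of the compared groups, and 0 to 1 without single libraries. At 20 h (2) it became 6 at a threshold of 0.05, 0 with the series covariate and 5 with DESeq2. For time in unactivated Ahr-/- cells (1) it was 2 at 0.05, 2 with the replicate block, 2 with limma-voom and the block as a random effect, 0 in the compared groups and 1 to 2 without single libraries. For the activation response between genotypes at 20 h (2) it was 4 at 0.05, 1 with upper-quartile scaling, 0 without the filter, 0 with the series covariate, 4 with the replicate block, 4 with limma-voom and the block, 4 with DESeq2, 0 in the compared groups and 0 to 2 without single libraries. The share of all genes called under each of these settings is not given here, so these counts do not set the Irf genes apart from other genes. The cause of the changes was not tested. Upper-quartile scaling moved the median of all genes by -0.16 in Ahr+/+ cells at 3 h of activation, and by it Irf3 there (-0.62, adjusted p = 0.0038) and Irf8 at 20 h (-0.46, adjusted p = 0.0084) passed the threshold.

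Same-numbered libraries of a genotype at the same time deviated together at r above 0.1 in 32 of 48 pairs of Ahr+/+ groups (median 0.146) and 45 of 48 of Ahr-/- groups (median 0.407), and 43 and 32 of the 48 correlated best with their own number. This is a hint from the data that equal numbers share a mouse. The Ahr-/- pairs not above 0.1 all held unactivated replicate 1 of 3 h (r = -0.248, -0.173 and -0.054). The main design has no block, since the sources used here do not state the pairing and not every pair was above 0.1, so the blocked values stand beside it here. The block added 8 calls and lost 0, among them Irf3 at 3 h of activation (-0.46, adjusted p = 7.4e-05 in Ahr+/+ and -0.32, adjusted p = 0.0033 in Ahr-/- cells) and Irf7 in the activation response between genotypes (-1.28, adjusted p = 0.0021). For Irf1 in Ahr+/+ cells at 20 h the block gave 0.23 (adjusted p = 0.065) for BaP and 0.25 (adjusted p = 0.091) for I3C. Ahr-/- against Ahr+/+ could not be fitted with a fixed block. Depth limits Irf4 most.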
